A study of Arabidopsis thaliana with 30 samples.

Results

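Plasma membrane intrinsic proteins (PIPs) are the aquaporins of the plant plasma membrane. The 10 PIP genes followed here are a fixed list of loci: PIP1;1 to PIP1;5, PIP2;1 to PIP2;3, PIP2;6 and PIP2;7. The rule names loci and no measured value, but the list was made with earlier results of these data known. The PIP2 genes left out, PIP2;4, PIP2;5 and PIP2;8, had 502, 4908 and 666 counts over all libraries, fewer than any gene on the list. The 10 genes followed are among the 37513 entries in the count table, and all 10 were among the 19761 genes that passed the filter on low counts. The study asked how leaves of Arabidopsis thaliana (ecotype Columbia) that overexpress a grain amaranth gene differ from wild type (WT) leaves in their transcriptome during and after heat shock (HS). RNA-seq was performed on 30 leaf libraries, with 2 biological replicates for each of 15 treatments. The 15 treatments combined WT, Ah2880 overexpressing (OE) plants (line L12) and AhHAB4-PAI-1 OE plants (line L13) with 5 stages. HS-1, HS-5 and HS-11 were sampled after 1, 5.5 and 11 h at 45 °C, while R-1 and R-3 were sampled 1 and 3 days into recovery at 22 °C from 22 h of HS. Plants of all 3 lines were 4 weeks old according to the labels and went through the same stages. Per the study's methods, HS was given in constant light to plants grown in cycles of light and dark. Hours of light thus rose with hours of heat, and effects of heat, light and time of day cannot be told apart between stages. Ah2880 encodes a small protein of unknown function and AhHAB4-PAI-1 an RNA-binding protein, and the cauliflower mosaic virus 35S promoter drove each of them. Each transgene was represented by a single homozygous line, so an effect of the transgene and of that line cannot be told apart. Leaves of 10 plants were pooled per library, unheated plants are not among the libraries analysed here, and the amaranth transcripts are not among the counted A. thaliana genes, so the overexpression itself was not checked.

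PIPs are channels with 6 membrane-spanning helices that assemble as tetramers and let water cross the membrane down its gradient. Plants hold a PIP1 and a PIP2 group: PIP2 proteins are efficient water channels by themselves, whereas PIP1 proteins largely depend on joining PIP2 proteins in mixed tetramers to reach the plasma membrane, a property shown mainly for maize and Arabidopsis. Some PIPs also pass hydrogen peroxide or carbon dioxide, and in Arabidopsis rosettes PIP1;2, PIP2;1 and PIP2;6 contribute to the hydraulic conductivity of the leaf.

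PIP2;2 and PIP2;3 are shown as sequences because they are close enough for reads of one to resemble the other. The coding sequences, read from the TAIR10.1 genome, were 94.76 % identical over 858 bases, with 45 differing bases and a longest identical run of 242 bases. A stretch of 90 bases, at positions 403 to 492 of each coding sequence counted from the A of the start codon, held 12 differing bases, which stand in capitals.
PIP2;2: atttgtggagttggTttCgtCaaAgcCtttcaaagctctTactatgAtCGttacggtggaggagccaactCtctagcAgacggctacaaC
PIP2;3: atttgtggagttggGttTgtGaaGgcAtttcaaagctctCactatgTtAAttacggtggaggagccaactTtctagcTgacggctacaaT
Of all 150-base windows of the transcripts, 93 were shared between them, which is 8.81 % of those of PIP2;2 and 8.68 % of those of PIP2;3. Windows of this length were not shared between any other pair of the 10 genes. Their values are therefore less certain than those of the other 8 genes, although reads that span any differing base can tell them apart. Both genes lie on chromosome 2 on opposite strands, with 2612 bases between them, PIP2;2 (AT2G37170) at chr2:15613368-15615022 (minus strand) and PIP2;3 (AT2G37180) at chr2:15617635-15619155 (plus strand).

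The other 8 genes are spread over chromosomes 1 to 4 of TAIR10.1, and each of the 10 genes has 4 exons. PIP1;1 (AT3G61430) is at chr3:22733243-22735394, PIP1;2 (AT2G45960) at chr2:18910081-18911982, PIP1;3 (AT1G01620) at chr1:225665-227543, PIP1;4 (AT4G00430) at chr4:185285-187680 and PIP1;5 (AT4G23400) at chr4:12220641-12222468. PIP2;1 (AT3G53420) is at chr3:19803473-19805730, PIP2;6 (AT2G39010) at chr2:16291280-16294101 and PIP2;7 (AT4G35100) at chr4:16708361-16710407. Coding identity was 79.51 to 87.57 % among the 5 PIP1 genes and 70.73 to 94.76 % among the 5 PIP2 genes.

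Values are CPM, that is counts scaled to a common library size after adjustment of that size by TMM (trimmed mean of M-values) factors, and each pair of values below is replicate 1 followed by replicate 2. Libraries held 46825 to 5739590 counts, and at least 686550 outside WT R-3. In WT R-3 the 10 genes together had 129 and 155 counts, and the leaf mesophyll markers (RBCS1A and 4 others) summed to 592 CPM against 3479 to 22358 CPM in the other treatments. The root markers EXPA7, COBL9 and WER stayed at or below 0.713 CPM everywhere, while the 5 root markers summed to 224 CPM in WT R-3, mostly through the phosphate transporter gene PHT1;1, to 63.5 and 83.1 CPM in Ah2880 OE at R-1 and R-3, and to at most 12.5 CPM elsewhere. The part of these differences in the PIP values was not tested, and in bulk leaf RNA fewer cells of a type and less RNA per cell cannot be told apart. The Ah2880 OE libraries of R-1 and R-3 differed from each other about as much as replicates did (chi-square per degree of freedom 1.35 to 1.49, against 1.12 and 1.39 between replicates within R-1 and R-3), so these stages give little separate information in that line. Whether these are separate samplings of both stages, a repeated sampling or exchanged labels cannot be told from the counts, which bears on every Ah2880 OE value at R-1 and R-3. Scaling by library totals alone in place of TMM moved the median log2 difference of all genes by over 0.1 in most comparisons, up to from 0.40 to 1.32 (HS-11 minus HS-5, AhHAB4-PAI-1 OE minus WT), and members that were called in TMM-scaled values and took the other sign are named with the result.

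Relative to transcript length, the most abundant PIP transcripts were PIP2;1, the main leaf and root PIP2 and a target of abscisic acid signaling in guard cells, and PIP1;2, a water and carbon dioxide channel. At WT HS-1 the levels per kb of transcript were 2642 and 2508 CPM per kb for PIP2;1, 1955 and 1921 for PIP2;3 (RD28, first described as a gene of drought-stressed plants), 1889 and 1835 for PIP1;2 and a mean of 1308 for PIP2;2. Then came PIP2;7 at 586 and 598, PIP1;3 at 519.6 and 532, PIP1;4 at 453 and 461, PIP1;1 at 428 and 424, PIP2;6 at 229.7 and 247 and PIP1;5 at 169.7 and 165 CPM per kb. The pairs of libraries of neighbours in this order did not overlap, but 2 libraries per treatment do not allow a test of the order. Averaged over the 14 treatments other than WT R-3, PIP2;1 had 1312 CPM per kb (range 489 to 3360.5) and PIP1;2 had 988 (range 433 to 1868), whereas PIP1;5, the lowest, had 110.4 (range 47.5 to 205). PIP2;3 had the widest range of the 10, 20.8-fold between its highest mean, in AhHAB4-PAI-1 OE at HS-1, and its lowest, in AhHAB4-PAI-1 OE at R-3, and PIP1;4 the narrowest, 2.85-fold.

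Summed over the 10 genes, the PIP level in TMM-scaled CPM was highest at HS-1 in every line and lower in all libraries of every later stage. In WT the sum was 14801 and 14526 CPM at HS-1, 5178 and 5292 CPM at HS-5, 5605 and 5842 CPM at HS-11 and 3707 and 3491 CPM at R-1. In Ah2880 OE it was 14707 and 13885, 6439 and 5316, 5124 and 4963 and 5668 and 5265 CPM at the same stages. AhHAB4-PAI-1 OE differed at HS-5, where its libraries had 9717 and 10211 CPM, above all libraries of the other lines at that stage, after 16787 and 15061 CPM at HS-1 and before 4227 and 4160.3 CPM at HS-11 and 5185 and 4162 CPM at R-1. As a share of all counts, without TMM scaling, the 10 genes took 1.00 and 1.00 % at HS-1 and 0.537 and 0.549 % at HS-5 in WT. In AhHAB4-PAI-1 OE the shares were 0.989 and 0.883 % at HS-1 and 0.898 and 0.909 % at HS-5, so that the libraries of these stages overlapped. Several orders depend on the scaling. At HS-11 the mean sum in CPM was lower in both OE lines than in WT, whereas the mean share was higher, at 0.437 % in Ah2880 OE and 0.502 % in AhHAB4-PAI-1 OE against 0.415 % in WT. Between the OE lines the order at HS-11 turned likewise. From HS-5 to HS-11 the WT sum rose in CPM but fell as a share, and from HS-11 to R-1, where its share was 0.477 %, it fell in CPM but rose as a share. At HS-1 AhHAB4-PAI-1 OE was the highest line in mean CPM and the lowest in mean share, and Ah2880 OE, with overlapping CPM libraries, was below WT in mean CPM and above it in mean share (1.01 against 1.00 %). From R-1 to R-3 the mean of AhHAB4-PAI-1 OE rose in CPM and fell as a share, with overlapping libraries. No test was made on the sum.

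**Figure D1:**
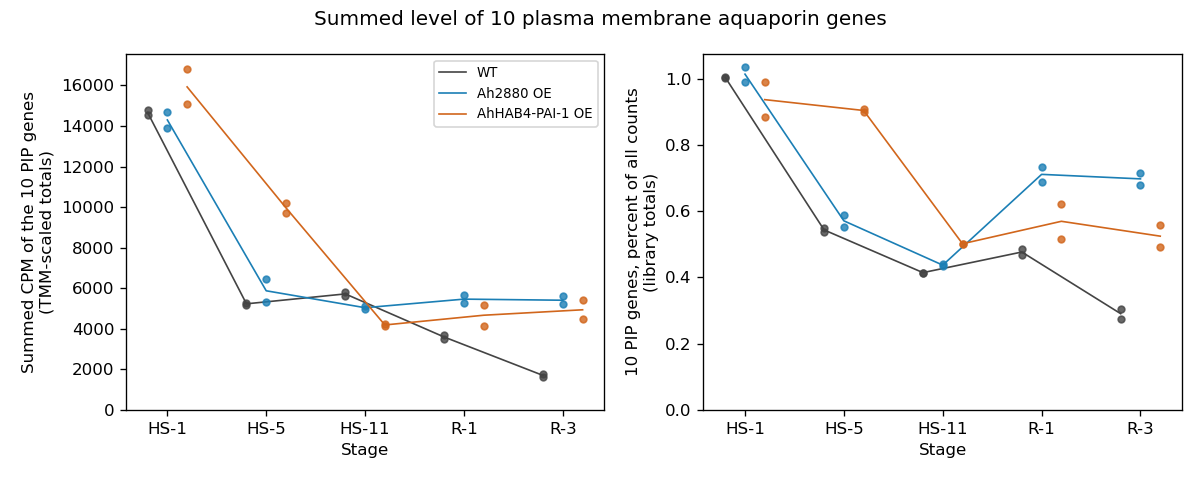
Summed level of the 10 PIP genes by stage, with a point per library (2 per treatment) and a line through the means of each line of plants, in TMM-scaled CPM (left panel) and as a percent of all counts (right panel), for WT, Ah2880 OE and AhHAB4-PAI-1 OE. At HS-5 the libraries of AhHAB4-PAI-1 OE, with 9717 and 10211 CPM, lie above the WT libraries at 5178 and 5292 CPM, and WT R-3 is the lowest treatment.

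At HS-1 few members differed between either OE line and WT. None of the 10 genes was called between Ah2880 OE and WT (adjusted p < 0.01 with edgeR's quasi-likelihood test, as in all calls below), where 4.49 % of all genes tested were called, while a single member had an unadjusted p under 0.05 and DESeq2 also called none. In AhHAB4-PAI-1 OE against WT, where 13.5 % of all genes were called, PIP2;7, a PIP2 whose amount Arabidopsis adjusts by degradation, was higher, with 1369.6 and 1278 CPM against 939.5 and 958 CPM (0.48 ± 0.11, adjusted p = 8.3e-04). PIP1;3 was lower, with 617 and 560.0 CPM against 805 and 825 CPM (-0.47 ± 0.12, adjusted p = 0.0017). The libraries of the lines did not overlap for either gene, but neither call was made when replicate 1 or replicate 2 of both groups was left out, and with library totals 0 members were higher and 5 lower.

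Between HS-1 and HS-5, 9 of the 10 PIP genes fell in WT, where 38.8 % of all genes were called and 21 % as lower, and the exception is described last. The median log2 fold change of the 10 genes was -1.38, against 0.00 over all genes tested. The 5 leaf mesophyll markers went in sum from 19099 and 18491 CPM to 8468 and 8588 CPM, each of the 5 being lower in both HS-5 libraries. The phloem marker SUC2 fell from 731 and 714 CPM to 220 and 232 CPM. The other phloem marker, APL, overlapped, with 19.3 and 23.4 CPM at HS-1 and 22.9 and 20.8 CPM at HS-5. The part of these markers in the PIP values was not tested. PIP2;1 went from 4156 and 3946 CPM to 991 and 1075 CPM (-1.97 ± 0.12, adjusted p = 6.8e-20). PIP2;3 went from 2385 and 2343 CPM to 666 and 658 CPM (-1.84 ± 0.11, adjusted p = 4.0e-20), and PIP1;1 from 666 and 659 CPM to 234 and 235 CPM (-1.50 ± 0.12, adjusted p = 2.5e-15). In each of these genes both HS-5 libraries lay far below both HS-1 libraries, and the other 6 genes called fell by 1.17 to 1.48 on the log2 scale. PIP2;6 had 347 and 372 CPM before and 361 and 356 CPM after this interval, with overlapping libraries (log2 fold change 0.00 ± 0.11 SE). With library totals it was called higher at HS-5, the other 9 genes still being called lower.

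In Ah2880 OE 9 genes fell between HS-1 and HS-5 and PIP2;6 rose, with 33.4 % of all genes called. PIP2;3 fell most, from 2045 and 2059 CPM to 501 and 403 CPM (-2.19 ± 0.12, adjusted p = 7.3e-23), while PIP2;6 went from 395 and 341 CPM to 522 and 437 CPM (0.38 ± 0.11, adjusted p = 0.0052). In AhHAB4-PAI-1 OE 6 genes fell and PIP1;5 and PIP2;6 rose, with 22.1 % of all genes called. PIP2;1 fell from 5643 and 4929 CPM to 2281 and 2249 CPM (-1.22 ± 0.12, adjusted p = 3.5e-12). Its HS-5 libraries stayed well below its HS-1 libraries, yet above those of the other lines at HS-5. With library totals only PIP2;1 and PIP2;3 were called lower and 4 genes higher in this line, and the values of PIP1;1, PIP1;4 and PIP2;2 turned to 0.18, 0.03 and 0.03. Without replicate 1 of both stages, and likewise without replicate 2, 5 of its 8 calls were made.

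**Figure D2:**
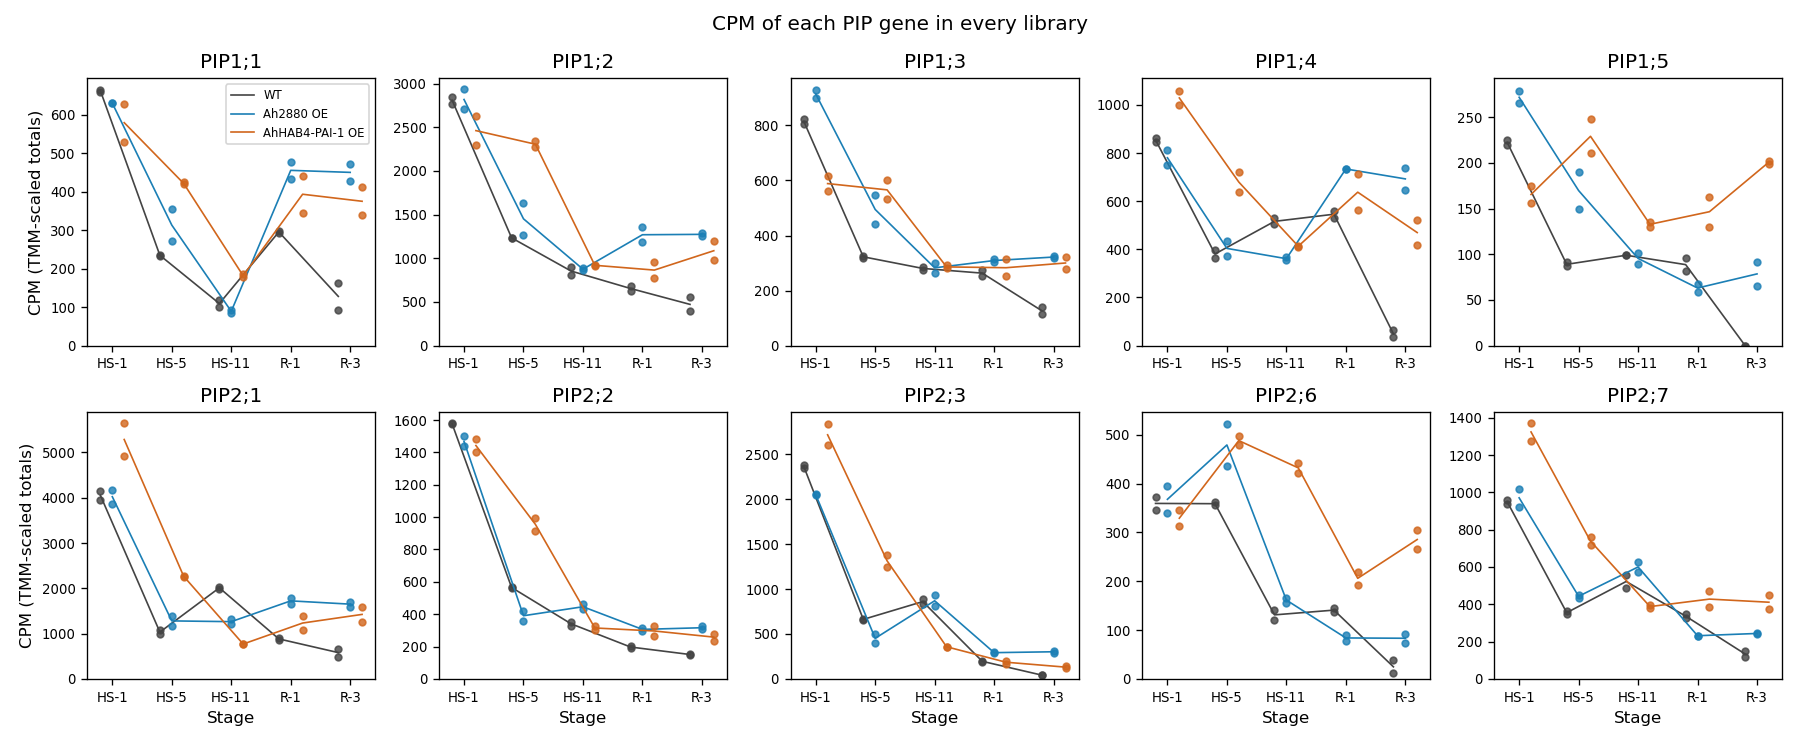
Level of each of the 10 PIP genes by stage in TMM-scaled CPM, with a point per library and a line through the mean of the 2 libraries of WT, Ah2880 OE and AhHAB4-PAI-1 OE. PIP2;1 falls in WT from 4156 and 3946 CPM at HS-1 to 991 and 1075 CPM at HS-5, and every WT library of R-1 lies below those of HS-1 in all 10 genes.

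At HS-5 all 10 PIP genes differed between AhHAB4-PAI-1 OE and WT. Each was higher in the OE line at adjusted p < 0.01, where 17.3 % of all genes were called in either direction and 8.61 % as higher. The median log2 fold change of the 10 genes was 0.87, against -0.05 over all genes tested. The leaf mesophyll markers were also higher, with a sum of 12791 and 13463 CPM against 8468 and 8588 CPM in WT and no overlap in any of the 5. The phloem markers summed to 298 and 317 CPM against 242 and 253 CPM, and the guard cell markers KAT1 and FAMA to 27.9 and 26.1 CPM against 23.1 and 20.8 CPM. What part these differences have in the PIP values was not tested. PIP1;5 had 211 and 248 CPM in the OE line and 91.0 and 87.0 CPM in WT (1.37 ± 0.13, adjusted p = 6.4e-12). PIP2;1 had 2281 and 2249 CPM against 991 and 1075 CPM (1.13 ± 0.12, adjusted p = 7.9e-11), and PIP2;7 had 716 and 761 CPM against 348 and 361 CPM (1.06 ± 0.11, adjusted p = 6.7e-11). In every one of the 10 genes both OE libraries were above both WT libraries. PIP2;3, PIP1;2, PIP1;1, PIP1;4 (a channel for hydrogen peroxide and carbon dioxide), PIP1;3 and PIP2;2 were higher by 0.76 to 0.99 on the log2 scale, and PIP2;6 by the least, with 478 and 498 CPM against 361 and 356 CPM (0.44 ± 0.12, adjusted p = 0.0026). This call was lost without replicate 1 of both groups (log2 fold change 0.48), without replicate 2 (0.40) and with library totals (0.25). The other 9 calls held in each of these fits.

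At the same stage Ah2880 OE had 4 members higher and 2 lower than WT, where 22.1 % of all genes were called, with a median of 0.31 against 0.04 over all genes. PIP1;5 had 189.7 and 149.9 CPM against 91.0 and 87.0 CPM in WT (0.93 ± 0.13, adjusted p = 8.0e-08), and PIP1;3 had 546 and 443 CPM against 326 and 319.6 CPM (0.61 ± 0.11, adjusted p = 1.9e-05). In contrast, PIP2;3 was lower, with 501 and 403 CPM against 666 and 658 CPM (-0.55 ± 0.11, adjusted p = 9.0e-05). None of these libraries overlapped between the lines. PIP1;1 and PIP2;6 were also called higher and PIP2;2 lower, but the replicates of Ah2880 OE at HS-5 were unlike (chi-square per degree of freedom 5.20, the largest among the replicate pairs). Without replicate 1 of both groups PIP1;1 (0.20), PIP1;3 (0.47) and PIP2;6 (0.29) were no longer called, and without replicate 2 neither were PIP2;2 and PIP2;3 (-0.42 each). With library totals PIP1;1 and PIP2;6 lost their calls.

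**Figure D3:**
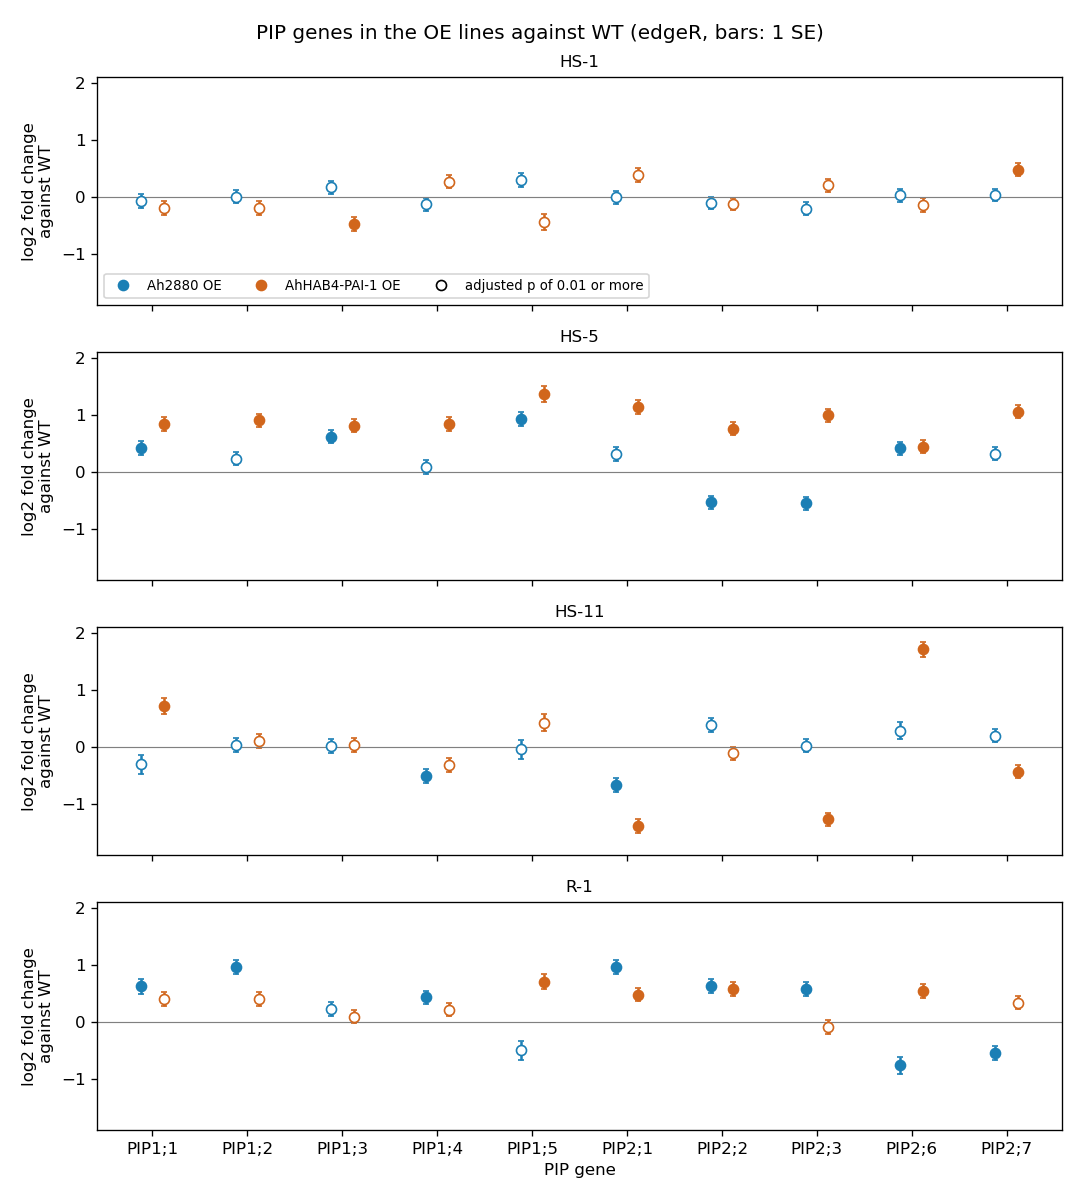
Log2 fold change of each PIP gene in Ah2880 OE and in AhHAB4-PAI-1 OE against WT at HS-1, HS-5, HS-11 and R-1, with bars of 1 SE from the edgeR fit and filled symbols for adjusted p < 0.01. At HS-5 all 10 AhHAB4-PAI-1 OE values are positive and filled, and at HS-11 they span from -1.39 for PIP2;1 to 1.71 for PIP2;6.

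At HS-11 the PIP genes of AhHAB4-PAI-1 OE split. PIP2;6 and PIP1;1 were higher than in WT, and PIP2;1, PIP2;3 and PIP2;7 lower, in a comparison in which 53.1 % of all genes were called, so that the 5 of 10 members called were near the share of all genes. PIP2;6 had 443 and 421 CPM against 121 and 141 CPM (1.71 ± 0.13, adjusted p = 1.6e-16). PIP2;1 had 771 and 767 CPM against 2027 and 1994 CPM (-1.39 ± 0.12, adjusted p = 1.9e-14), and PIP2;3 had 359 and 356 CPM against 829 and 892 CPM (-1.27 ± 0.11, adjusted p = 5.0e-14). These 3 genes had libraries far apart between the lines, and their calls and directions were also found with library totals and with DESeq2 size factors. PIP1;1 had 186 and 177 CPM against 100.1 and 119 CPM (0.72 ± 0.15) and lost its call without replicate 1 (0.58). The lower value of PIP2;7 (-0.43 ± 0.11) was not called without replicate 2 (-0.28) and turned to 0.29 with library totals, which gave 8 members higher and 2 lower, all genes having a median of 1.03 there against 0.30 with TMM. The leaf mesophyll markers summed to 6005 and 5962 CPM in AhHAB4-PAI-1 OE and 9296 and 9797 CPM in WT at this stage. RBCS1A, RBCS2B and CA1 were lower in the OE line. The other markers, LHCB2.1 (750 and 699 against 510 and 581 CPM) and GLDP1 (888 and 881 against 471 and 464 CPM), were higher. The part of these markers was not tested. In Ah2880 OE at HS-11 only PIP2;1, with 1215 and 1312 CPM (-0.67 ± 0.12, adjusted p = 5.1e-05), and PIP1;4, with 355 and 367 CPM (-0.51 ± 0.13, adjusted p = 0.0024), were called, both lower than WT (529 and 503 CPM for PIP1;4), where 8.87 % of all genes were called. Without replicate 1 neither gene was called (-0.61 and -0.46), and without replicate 2 PIP1;4 was not (-0.56). Library totals gave 3 members higher and 1 lower.

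The upstream sequences of the 3 genes that differed most at HS-11 are shown because these genes moved in opposite directions. They are the 250 bases before the annotated start in TAIR10.1, written in the direction of the gene, with matches to TATAAA on either strand in capitals.
PIP2;6 (chr2:16291030-16291279, plus strand): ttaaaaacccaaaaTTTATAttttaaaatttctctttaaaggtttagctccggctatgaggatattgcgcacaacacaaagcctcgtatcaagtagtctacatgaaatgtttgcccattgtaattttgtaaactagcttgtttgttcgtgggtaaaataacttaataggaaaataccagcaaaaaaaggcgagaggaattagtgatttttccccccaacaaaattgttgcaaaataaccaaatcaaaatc
PIP2;1 (chr3:19805731-19805980, minus strand): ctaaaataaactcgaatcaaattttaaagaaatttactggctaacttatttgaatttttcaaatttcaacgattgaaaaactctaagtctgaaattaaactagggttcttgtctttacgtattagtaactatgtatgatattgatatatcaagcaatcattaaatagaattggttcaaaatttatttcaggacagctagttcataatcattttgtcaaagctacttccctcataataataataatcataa
PIP2;3 (chr2:15617385-15617634, plus strand): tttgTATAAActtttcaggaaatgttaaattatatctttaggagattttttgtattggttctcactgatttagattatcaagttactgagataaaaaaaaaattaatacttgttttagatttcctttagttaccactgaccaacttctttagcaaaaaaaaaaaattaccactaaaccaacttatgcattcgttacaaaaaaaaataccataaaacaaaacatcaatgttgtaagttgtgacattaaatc
TATAAA was found in 6 of the 10 PIP windows, including the first and the third of those printed, and in 47.4 % of the 27437 windows of protein-coding genes. ACGTG, the core of elements of abscisic acid response, was in none of the 10 windows and in 22.9 % of all. GAANNTTC, a pair of the repeats that heat shock factors bind, was in 1 of the 10, PIP2;7, and in 9.55 % of all. These are matches of letters on both strands of a short window and say nothing about binding.

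From HS-5 to HS-11 the lines also took different courses. In WT 4 members rose and 4 fell, with 49.5 % of all genes called. PIP2;6 fell from 361 and 356 CPM to 121 and 141 CPM (-1.44 ± 0.13, adjusted p = 9.7e-14), PIP1;1 fell (-1.09 ± 0.15, adjusted p = 7.5e-09), and PIP2;1 rose from 991 and 1075 CPM to 2027 and 1994 CPM (0.96 ± 0.12, adjusted p = 1.3e-09). Library totals gave 1 higher and 5 lower, and the rises of PIP1;4 and PIP2;3 then had values of -0.08 and -0.14. Without replicate 1 or without replicate 2, 5 of the 8 WT calls were made. In Ah2880 OE 2 members rose and 5 fell, with 45.5 % of all genes called. PIP1;1 (-1.81 ± 0.14, adjusted p = 8.9e-16) and PIP2;6 (-1.57 ± 0.13, adjusted p = 7.5e-16) fell most, and PIP2;3 rose from 501 and 403 CPM to 932 and 807 CPM (0.95 ± 0.11, adjusted p = 4.2e-10). In AhHAB4-PAI-1 OE 9 members fell and none rose, with 19.7 % of all genes called, 11.7 % as lower, and a median of -1.10 against 0.05 over all genes. PIP2;3 fell from 1248 and 1381 CPM to 359 and 356 CPM (-1.88 ± 0.11, adjusted p = 1.7e-19), PIP2;2, a PIP2 best known from roots, fell by 1.60 on the log2 scale and PIP2;1 by 1.56, while PIP2;6 was not called (-0.18 ± 0.11). In TMM-scaled CPM the leaf mesophyll sums given above were lower at HS-11 than at HS-5 in AhHAB4-PAI-1 OE and higher in WT. Every one of these markers was lower in AhHAB4-PAI-1 OE, whereas in WT only RBCS1A, RBCS2B and CA1 were higher. LHCB2.1 fell in WT from 1846 and 1804 CPM to 510 and 581 CPM, and GLDP1 from 933 and 958 CPM to 471 and 464 CPM.

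The difference between these changes was tested as an interaction term. For AhHAB4-PAI-1 OE minus WT, the change from HS-5 to HS-11 was more negative in 8 members and more positive in PIP2;6, with 47.5 % of all genes called. The difference was -2.52 ± 0.17, adjusted p = 3.0e-18 for PIP2;1, -2.26 ± 0.16, adjusted p = 1.5e-17 for PIP2;3 and -1.49 ± 0.16, adjusted p = 1.6e-11 for PIP2;7. For PIP2;6 it was 1.26 ± 0.18 (adjusted p = 1.8e-08). Leaving out replicate 1 or 2 gave 5 to 9 members called. Library totals left 2 more positive and 3 more negative, with PIP1;2, PIP1;3 and PIP2;2 changing sign (0.13, 0.14 and 0.05). For Ah2880 OE minus WT, 2 members were more positive and 5 more negative, with 13.6 % of all genes called, led by PIP2;1 (-0.98 ± 0.17, adjusted p = 1.5e-05), PIP1;5 (-0.97 ± 0.21, adjusted p = 4.1e-04) and PIP2;2 (0.92 ± 0.16, adjusted p = 2.0e-05). Only 1 to 2 of these 7 calls were made without replicate 1 or 2, and 3 with library totals.

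At R-1, 6 members were higher and 2 lower in Ah2880 OE than in WT, where 29.2 % of all genes were called, and the median of the 10 was 0.50 against -0.28 over all genes. PIP2;1 had 1786 and 1659 CPM against 904 and 861 CPM (0.96 ± 0.12, adjusted p = 3.8e-09). PIP1;2 had 1354 and 1185 CPM against 678 and 629 CPM (0.96 ± 0.12, adjusted p = 6.6e-09), and PIP2;6 was lower, with 90.1 and 77.6 CPM against 144 and 137 CPM (-0.76 ± 0.15, adjusted p = 3.8e-05). The libraries of the lines did not overlap in these genes. PIP2;2, PIP1;1, PIP2;3 and PIP1;4 were also higher, by 0.43 to 0.63, and PIP2;7 lower, by -0.54 ± 0.12. The lower calls were not made when either replicate was left out (-0.65 and -0.51 for PIP2;6, -0.32 and -0.42 for PIP2;7), nor was PIP1;4 without replicate 2 (0.55). In AhHAB4-PAI-1 OE 4 members were higher than in WT and none lower, where 7.13 % of all genes were called. PIP1;5 had 163 and 130.2 CPM against 95.6 and 81.7 CPM (0.70 ± 0.13, adjusted p = 1.3e-04), PIP2;2 was higher by 0.57 ± 0.12, PIP2;6 by 0.54 ± 0.12 and PIP2;1 by 0.48 ± 0.12. Without replicate 1 of both groups none of these calls was made, and without replicate 2 only 2 were. The leaf mesophyll markers at R-1 summed to 6588 and 5112 CPM in AhHAB4-PAI-1 OE, 3531 and 3426 CPM in Ah2880 OE and 3687 and 3404 CPM in WT. The similar sums of Ah2880 OE and WT hold opposite differences. RBCS1A, RBCS2B (135 and 128 against 613 and 562 CPM) and CA1 were lower in Ah2880 OE. LHCB2.1 (1179 and 1233 against 746 and 673 CPM) and GLDP1 (819 and 805 against 425 and 496 CPM) were higher. The guard cell markers summed to 9.01 and 5.12 CPM in Ah2880 OE, 25.3 and 28.0 CPM in WT and 34.5 and 25.3 CPM in AhHAB4-PAI-1 OE. The phloem markers summed to 71.0 and 63.7, 103 and 115, and 112 and 131 CPM in the same order. The part of these markers was not tested. Replicate 1 of AhHAB4-PAI-1 OE was above replicate 2 in each of the 10 genes at R-1.

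From HS-11 to R-1, PIP1;1 rose in all 3 lines, and PIP2;3 fell in all 3. The R-1 plants had 22 h of HS before their day of recovery, and no library was taken at the end of HS. Effects of the later hours of heat and of recovery therefore cannot be told apart in this step. In WT, where 55.5 % of all genes were called, PIP1;1 went from 100.1 and 119 CPM to 299 and 292 CPM (1.42 ± 0.15, adjusted p = 2.4e-12) and PIP2;3 from 829 and 892 CPM to 200.5 and 191 CPM (-2.14 ± 0.12, adjusted p = 3.0e-22). The other WT calls were 4 decreases, of which that of PIP2;1 stood at 904 and 861 CPM after 2027 and 1994 CPM (-1.19 ± 0.12, adjusted p = 2.2e-12). With library totals WT had 6 members higher and 2 lower, the decreases of PIP2;2, PIP2;7 and PIP1;2 turning to 0.08, 0.24 and 0.49. In Ah2880 OE, 4 members rose and 5 fell, with 51.6 % of all genes called, and PIP1;1 went from 92.6 and 85.6 CPM to 479 and 433 CPM (2.35 ± 0.15, adjusted p = 5.5e-20). PIP2;3 fell by 1.58 on the log2 scale and PIP2;7 by 1.38, and the decrease of PIP2;2 turned to 0.04 with library totals. Without replicate 1, 5 of these 9 calls were made. In AhHAB4-PAI-1 OE, where 48.9 % of all genes were called, 3 members rose and 2 fell. PIP1;1 (1.10 ± 0.12, adjusted p = 6.2e-11) rose, PIP2;3 fell by 0.97, and PIP2;6 went from 443 and 421 CPM to 219 and 193 CPM (-1.08 ± 0.12, adjusted p = 2.0e-11). Without replicate 1, 3 of these 5 calls were made.

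Compared with the change in WT from HS-11 to R-1, that of Ah2880 OE was more positive in 5 members and more negative in 2, with 18.4 % of all genes called. It was led by PIP2;1 (1.64 ± 0.17, adjusted p = 7.2e-11), PIP2;6 (-1.05 ± 0.21, adjusted p = 9.3e-05) and PIP1;4 (0.94 ± 0.17, adjusted p = 2.4e-05), and 2 of the 7 calls were made without replicate 1 or 2. That of AhHAB4-PAI-1 OE was more positive in 5 members and more negative in PIP2;6, with 44.2 % of all genes called. PIP2;1 differed by 1.86 ± 0.17, adjusted p = 2.0e-13, PIP2;3 by 1.17 ± 0.17 and PIP2;6 by -1.17 ± 0.18. Here 3 to 5 calls were made without replicate 1 or 2, and library totals gave 1 more positive and 5 more negative, with PIP1;4, PIP2;2 and PIP2;7 at -0.31, -0.15 and -0.08.

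R-3 could be compared with WT only coarsely, because the 2 WT R-3 libraries held 129 and 155 counts of the 10 genes together. There 8 members were higher in Ah2880 OE and 9 in AhHAB4-PAI-1 OE, with 5.22 and 16.2 % of all genes called, and the median of all genes was itself at 1.03 and 1.51. The medians of the 10 were 1.63 and 1.59. They were 1.38 and 1.59 with the genes at or under 3 counts in both WT libraries set at the folds for 3 assumed counts given below. PIP1;4 had 63.0 and 34.6 CPM in WT, 737 and 648 CPM in Ah2880 OE (3.84 ± 0.33, adjusted p = 2.8e-13) and 418 and 521 CPM in AhHAB4-PAI-1 OE (3.28 ± 0.35, adjusted p = 5.1e-11). PIP2;3 had 37.8 and 46.1 CPM in WT against 313 and 291 CPM in Ah2880 OE (2.84 ± 0.38, adjusted p = 1.1e-07). In both genes the WT libraries lay far below those of the OE lines. The WT values are only 5 and 3 counts for PIP1;4 and 3 and 4 counts for PIP2;3, so the sizes of these folds and their SE are coarse. PIP1;5 had 0 counts in both WT R-3 libraries and PIP2;6 had 3 and 1. Their folds were therefore computed in TMM-scaled CPM with 3 counts assumed in either library. For PIP2;6 this is the count seen in replicate 1, so its folds are not lower limits. On this assumption PIP1;5 was 2.17-fold higher in Ah2880 OE and 5.55-fold in AhHAB4-PAI-1 OE. PIP2;6, which was not called in Ah2880 OE, was then 7.89-fold higher in AhHAB4-PAI-1 OE. From R-1 to R-3, 7 members fell in WT, with 11.9 % of all genes called, but the median of the 10, -1.28, was no lower than that of all genes tested, -1.39. With 3 counts assumed at R-3, PIP1;5 was 2.45-fold and PIP2;6 3.89-fold lower. PIP1;4 fell by 3.50 on the log2 scale, to the 5 and 3 counts given above. No gene of any kind was called in Ah2880 OE, where 0 of the 10 members had an unadjusted p under 0.05 (5.43 % of all genes) and DESeq2 called no member either. In AhHAB4-PAI-1 OE 2 members rose and 2 fell, with 17.6 % of all genes called: PIP2;3 (-0.49 ± 0.12, adjusted p = 0.0017) and PIP1;4 (-0.44 ± 0.12) were lower, PIP1;5 and PIP2;6 higher by 0.48 each. Both rises were lost with library totals (0 higher, 3 lower), with no filter and without the WT R-3 libraries (0 higher, 2 lower each), and the fit of only these 4 libraries called none. Of these 4 calls, 1 was made without replicate 1 and 2 without replicate 2.

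The OE lines were also compared with each other. At HS-5, 8 members were higher in AhHAB4-PAI-1 OE and none lower, with 26.5 % of all genes called. PIP2;3 differed by 1.54 ± 0.11, adjusted p = 1.2e-16, PIP2;2 by 1.29 ± 0.11, adjusted p = 4.0e-14 and PIP2;1 by 0.82 ± 0.12, whereas PIP1;3 and PIP2;6 were not called. Without replicate 2, 5 of the 8 calls were made. At HS-1 4 members were higher and 2 lower (17.1 % of all genes called), led by PIP1;5 (-0.73 ± 0.14) and PIP1;3 (-0.64 ± 0.12), with 0 to 2 called without replicate 1 or 2 and 0 higher and 5 lower with library totals. At HS-11 3 were higher and 4 lower (47.6 %), led by PIP2;6 (1.42 ± 0.12, adjusted p = 2.2e-14), PIP2;3 (-1.28 ± 0.11) and PIP1;1 (1.02 ± 0.14), and library totals gave 6 higher and 1 lower. In recovery PIP2;6, PIP1;5 and PIP2;7 were higher in AhHAB4-PAI-1 OE than in Ah2880 OE at both stages. PIP2;6 had 267 and 304 CPM against 92.5 and 74.0 CPM at R-3 (1.80 ± 0.14, adjusted p = 6.5e-17) and differed by 1.30 ± 0.15 at R-1. The 3 members lower at R-1 (32.6 % of all genes called) were PIP1;2, PIP2;1 and PIP2;3, and the 2 lower at R-3 (43.5 %) were PIP1;4 and PIP2;3. With library totals R-3 had 3 higher and 7 lower, and the same count of 10 was called when the WT R-3 libraries were left out of the fit.

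Because shares within the 10 genes do not depend on scaling between libraries, the makeup of the PIP transcripts is given as a description. PIP2 genes made up 63.6 and 63.3 % of the PIP counts at WT HS-1 and 48.5 and 48.8 % at WT R-1, with 50.2 and 50.3 % in AhHAB4-PAI-1 OE and 48.0 and 48.4 % in Ah2880 OE at R-1. PIP2;6 took 2.34 and 2.56 % at WT HS-1, 2.15 and 2.42 % at WT HS-11 and 10.5 and 10.1 % at HS-11 in AhHAB4-PAI-1 OE. Its share at HS-11 was thus several times larger in this OE line than in WT, in both libraries. A large share was not particular to this line, since at HS-5 it was 6.98 and 6.73 % in WT. In Ah2880 OE it was 8.11 and 8.21 % at HS-5, and in AhHAB4-PAI-1 OE 4.92 and 4.88 %. PIP2;1 took 36.2 and 34.1 % at WT HS-11 and 18.2 and 18.4 % at HS-11 in AhHAB4-PAI-1 OE. At WT HS-5 it took 19.1 and 20.3 %. The count ratio of PIP2;3 to PIP2;2 in WT was 1.51 and 1.49 at HS-1 and 1.18 and 1.16 at HS-5. At HS-11 it was 2.52 and 2.53 in WT and 1.09 and 1.19 in AhHAB4-PAI-1 OE. At R-3 it was 0.517 and 0.498 in AhHAB4-PAI-1 OE. These genes thus did not keep a fixed ratio across treatments, despite the similar sequences printed above.

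**Figure D4:**
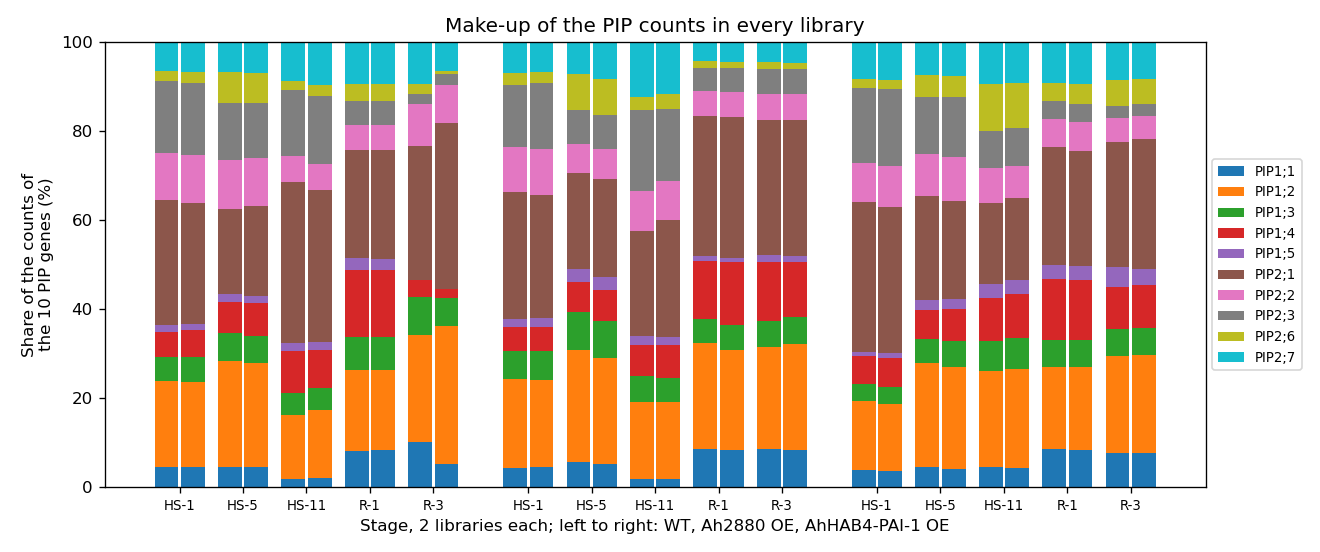
Share of each PIP gene in the summed counts of the 10 genes (percent, stacked to 100), with a bar per library, 2 bars per stage, and WT, Ah2880 OE and AhHAB4-PAI-1 OE from left to right. The PIP2;6 band is widest in the HS-11 bars of AhHAB4-PAI-1 OE, with 10.5 and 10.1 % in its libraries.

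Other aquaporins were counted from fixed lists: 3 further PIP2 genes, 7 tonoplast intrinsic proteins (TIPs, the vacuolar water channels), 4 NIPs and 2 SIPs passed the filter on low counts. The TIPs moved in part with the PIPs. In WT from HS-1 to HS-5, 5 of the 7 TIPs fell and none rose, with 38.8 % of all genes called. In Ah2880 OE 5 fell also, against 33.4 % of all genes, or 3 with library totals, and in AhHAB4-PAI-1 OE 1 fell, against 22.1 %, where library totals gave 2 higher and none lower. Against WT at HS-5, 3 TIPs were higher in AhHAB4-PAI-1 OE and 4 in Ah2880 OE, none being lower, against 17.3 and 22.1 % of all genes called. TIP1;1, an abundant vacuolar aquaporin, had 1051 and 1095 CPM in WT and 2096 and 2386 CPM in AhHAB4-PAI-1 OE at HS-5 (1.06 ± 0.12, adjusted p = 3.8e-10). Chosen after its values were seen, TIP1;1 at HS-11 had the opposite order, with 2478 and 2597 CPM in WT and 839 and 846 CPM in the OE line (-1.59 ± 0.12, adjusted p = 1.1e-16), 3 TIPs being lower and 1 higher there against 53.1 % of all genes called, of which TIP1;2 turned to 0.25 with library totals. TIP2;1 had 154 and 152 CPM in WT at HS-5, 328 and 332 CPM in Ah2880 OE (1.11 ± 0.11, adjusted p = 7.3e-12) and 337 and 404 CPM in AhHAB4-PAI-1 OE (1.28 ± 0.11, adjusted p = 2.1e-13). Of the 3 further PIP2 genes, 2 were higher in Ah2880 OE and none was called in AhHAB4-PAI-1 OE against WT at HS-5. NIP5;1, a boric acid channel of Arabidopsis roots, was higher at HS-11, with 16.1 and 18.0 CPM in AhHAB4-PAI-1 OE against 0 and 2.75 CPM in WT, the latter being 0 and 4 counts (3.30 ± 0.51, adjusted p = 1.5e-07). No NIP was higher at HS-5 in either line, 1 was lower in AhHAB4-PAI-1 OE, and no SIP was called.

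Of 8 genes for PIP trafficking and modification, AhHAB4-PAI-1 OE had 2 higher and 4 lower than WT at HS-11, where 53.1 % of all genes were called, and 1 higher and 1 lower at HS-5, where 17.3 % were. Library totals gave 3 higher and 2 lower at HS-11, with no change of sign among those called. VAMP721, a vesicle protein of the secretory route to the plasma membrane that was likewise picked from its values, had 56.0 and 57.5 CPM against 177 and 218 CPM in WT at HS-11 (-1.82 ± 0.14, adjusted p = 1.3e-16). TSPO, a membrane protein that in Arabidopsis directs PIP2;7 to degradation, had 41.5 and 46.4 CPM against 0 and 0.687 CPM, the latter at or below 1 count per library, so no fold is given. Both WT libraries were thus far below those of the OE line in TSPO and above them in VAMP721. In Ah2880 OE 2 were higher and 1 lower at HS-5 (22.1 % of all genes called) and none was called at HS-11. SYP121, a plasma membrane syntaxin that takes part in PIP delivery, was the leading gene at HS-5, with 36.3 and 36.9 CPM against 13.0 and 10.5 CPM in WT (1.62 ± 0.18, adjusted p = 2.5e-10).

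Across the 14 treatments other than WT R-3, the average standardized profile of the 10 genes correlated best with PIP1;3 among the members (r = 0.96) and least with PIP2;6 (r = 0.57). The 5 other genes with the most similar profiles were AOR (r = 0.959), SQE3 (0.946), CAT2, which encodes a catalase (0.945), FTSH1, which encodes a chloroplast protease (0.942), and bZIP58 (0.941). These are Pearson correlations of mean log2 CPM over 14 treatment means that share libraries and scaling, and they are given as a description.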

How the data were processed

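Leaf RNA of 30 libraries, 2 per treatment, was sequenced, and groups were taken from the labels. Per the study's methods, the authors mapped reads to TAIR10 (Bowtie2), handled the alignments in Samtools, discarded duplicates (Picard) and obtained counts of each gene with Subread. The counts were deposited without normalization, and duplicate removal can lower the counts of abundant transcripts such as those of the PIPs. The annotation release and the strand setting are not given in the sources used here. The times and ages used are those of the labels, which differ slightly from those in the study's text. All 30 single-library files held the same counts as the table, and 0 columns belonged to other samples.

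The analysis used edgeR 4.0.16 in R 4.3.3, with filterByExpr over the 15 treatments, TMM factors and a quasi-likelihood fit (legacy set to FALSE) with 1 mean per treatment. For 31 comparisons, Benjamini-Hochberg adjustment covered all 19761 genes tested, the threshold was an adjusted p of 0.01, and each SE is the log2 fold change over the root of the F statistic. The p-values rest on the spread between libraries, each a pool of plants, estimated over all treatments together. That spread was uneven. Chi-square per degree of freedom between replicates was 1.04 in WT HS-5 and 1.19 in AhHAB4-PAI-1 OE HS-11, close to counting noise, and 5.20 in Ah2880 OE HS-5. On data simulated for AhHAB4-PAI-1 OE against WT at HS-5, 48 % of genes changed by a factor of 2 and 100 % of those changed by a factor of 4 were recovered among 18511 genes tested. The changed genes were drawn at random over a wide range of counts, and all genes were given the same dispersion. These rates are therefore not those of the PIP genes.

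The members and lists were chosen with earlier results of these data known. In each comparison up to 3 members with the largest called change were given in full. Other aquaporins and PIP trafficking genes were named, at most 2 per comparison, if called with at least 50 counts, and 5 genes were named for the likeness of their profile. VAMP721 and TIP1;1 at HS-11 are outside this rule. Alternatives were DESeq2 1.42.0 (its Wald test and, separately, its size factors), library totals, no filter, the legacy fit, a replicate block, omission of WT R-3, a fit of only the libraries compared, and leaving out replicate 1 or 2.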

Additional observations from a re-analysis of the deposited data

Results flagged for a closer look

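Stage changes that differed between an OE line and WT by an interaction term are listed here with no explanation. Between HS-5 and HS-11 the change of 7 members differed between Ah2880 OE and WT (13.6 % of all genes called) and that of 9 members between AhHAB4-PAI-1 OE and WT (47.5 %). Between HS-11 and R-1 the change of 7 members differed between Ah2880 OE and WT (18.4 %) and that of 6 members between AhHAB4-PAI-1 OE and WT (44.2 %). Without replicate 1 or 2 the Ah2880 OE counts were 1 to 2 and 2, and the AhHAB4-PAI-1 OE counts 5 to 9 and 3 to 5, in the same order of stages. The pair of opposite signs in AhHAB4-PAI-1 OE was PIP2;6, with a difference of 1.26 for HS-5 to HS-11, and PIP2;1, with -2.52. All of these comparisons with WT share the WT libraries of HS-11.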

How the results depend on the processing

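Depth limits R-3 in WT most, where the 10 genes had 129 and 155 counts, and 2 libraries per treatment limit all comparisons. Of the values of called members over all alternatives, 1681 kept their call, 220 lost it and 16 turned direction, each of the 16 with library totals. The cause was not tested. These were PIP2;7 in AhHAB4-PAI-1 OE against WT at HS-11 (0.29), PIP1;4 (-0.083) and PIP2;3 (-0.14) for WT from HS-5 to HS-11, PIP2;2 (0.081), PIP2;7 (0.24) and PIP1;2 (0.49) for WT from HS-11 to R-1, PIP2;2 (0.039) for Ah2880 OE from HS-11 to R-1, and PIP1;4 (0.030), PIP2;2 (0.033) and PIP1;1 (0.18) for AhHAB4-PAI-1 OE from HS-1 to HS-5. For AhHAB4-PAI-1 OE minus WT they were PIP2;2 (0.049), PIP1;2 (0.13) and PIP1;3 (0.14) from HS-5 to HS-11, and PIP2;7 (-0.077), PIP2;2 (-0.15) and PIP1;4 (-0.31) from HS-11 to R-1.

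Counts of members called moved as follows. With library totals, Ah2880 OE against WT gave 4 at HS-11, AhHAB4-PAI-1 OE against WT gave 5 at HS-1, 10 at HS-11 and 5 at R-3, AhHAB4-PAI-1 OE against Ah2880 OE gave 10 at R-3, and the step from HS-5 to HS-11 minus that in WT gave 3 in Ah2880 OE and 5 in AhHAB4-PAI-1 OE. When each fit held just the libraries it compared, Ah2880 OE against WT gave 3 at HS-1 and 2 at R-3, AhHAB4-PAI-1 OE against WT gave 4 at HS-1, 1 at R-1 and 4 at R-3, AhHAB4-PAI-1 OE against Ah2880 OE gave 5 at HS-5 and 9 at R-3, and R-1 to R-3 gave 2 in WT and 0 in AhHAB4-PAI-1 OE. The DESeq2 Wald test gave 5 for Ah2880 OE against WT at R-3 and 4 for R-1 to R-3 in WT. No filter, and likewise omission of WT R-3, gave 10 for AhHAB4-PAI-1 OE against Ah2880 OE at R-3 and 2 for R-1 to R-3 in AhHAB4-PAI-1 OE.

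Medians of the 10 genes against WT moved with library totals to 0.27 (Ah2880 OE at HS-11), 1.23 (Ah2880 OE at R-3), -0.35 (HS-1 in AhHAB4-PAI-1 OE), 0.68 (both HS-5 and HS-11 in that line) and 0.92 (R-3 in that line), and with DESeq2 size factors to 0.44 (Ah2880 OE at R-1), 1.39 (at R-3) and 0.052 (HS-11 in AhHAB4-PAI-1 OE). Summed CPM on library totals in WT, Ah2880 OE and AhHAB4-PAI-1 OE, in that order, were 10035, 10132 and 9363 at HS-1. At HS-5 they were 5434 in WT and 9036 in AhHAB4-PAI-1 OE. At HS-11 the sums in the same order were 4145, 4372 and 5016, and at R-1 they were 4767, 7109 and 5693. At R-3 they were 2907 in WT and 6973 in Ah2880 OE.

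Leaving out a replicate of the groups compared gave these lowest and highest counts. For Ah2880 OE against WT, 3 to 4 at HS-5, 0 to 1 at HS-11, 5 to 6 at R-1. For AhHAB4-PAI-1 OE against WT, 0 in either case at HS-1, 0 to 2 at R-1. For AhHAB4-PAI-1 OE against Ah2880 OE, 0 to 2 at HS-1, 5 to 8 at HS-5. For stage changes, 5 in either case for WT from HS-5 to HS-11, 5 to 7 for Ah2880 OE from HS-11 to R-1, 5 in either case for AhHAB4-PAI-1 OE from HS-1 to HS-5, 3 to 5 for AhHAB4-PAI-1 OE from HS-11 to R-1, 1 to 2 for AhHAB4-PAI-1 OE from R-1 to R-3, 1 to 2 for Ah2880 OE minus WT from HS-5 to HS-11, 2 in either case for Ah2880 OE minus WT from HS-11 to R-1, 5 to 9 for AhHAB4-PAI-1 OE minus WT from HS-5 to HS-11, 3 to 5 for AhHAB4-PAI-1 OE minus WT from HS-11 to R-1. The other counts stayed within 1.5 times the count of the full fit.

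No pairing of the samples by replicate number was detected, although this check cannot exclude it. The deviations of same-numbered libraries correlated between -0.206 and 0.143 over 105 pairs of treatments, 3 of them above 0.1. With a replicate block, AhHAB4-PAI-1 OE against WT at HS-11 gave 6 members called and AhHAB4-PAI-1 OE against Ah2880 OE at HS-1 gave 5, in place of 5 and 6, and no other count of members changed.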
